A study of Mus musculus with 6 samples.

Results

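The transcripts of 10 effector cytokines (Il2, Ifng, Tnf, Il3, Il4, Il13, Il10, Il17a, Il21 and Csf2) were examined in stimulated CD4 T cells from mice with and without AMPKα1 in their T cells. They were chosen by symbol, and all 10 are among the 23282 listed lines of each library. The WT group was Prkaa1fl/fl without CD4Cre and the AMPK KO group was Prkaa1fl/fl with CD4Cre, a transgene whose Cd4 promoter drives Cre in the T lineage, so both groups carry the floxed allele of the AMPKα1 gene. Each group held 3 samples of C57BL/6 mice, for which the methods give an age of 6 to 8 weeks and female sex. CD4 T cells from spleen and lymph nodes rested for 1 h and were then activated with antibodies to CD3 and CD28, each at 2 µg/mL. The study's methods give 6 h of stimulation, and the labels give 24 h. The question was whether cytokine transcripts differ when CD4 T cells lack AMPKα1.

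Effector cytokines are the secreted proteins through which an activated helper T cell acts on other cells. Binding of the T cell receptor and CD28 activates NFAT, AP-1 and NF-κB factors, which induce these genes quickly, and AU-rich stretches near the end of the mRNA keep many of the transcripts short-lived. Helper lineages differ in what they make: IFN-γ is typical of Th1 cells, IL-4 and IL-13 of Th2 cells, IL-17A of Th17 cells and IL-21 of follicular helper cells. IL-2 is the growth factor of activated T cells, and IL-10 restrains inflammation.

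The libraries read the 3′ ends of transcripts and held 9575096 to 10168121 reads on genes for the WT samples and 10515155 to 11185360 for AMPK KO. Rn45s, the precursor of ribosomal RNA, took 20.7% to 24.9% of the reads of WT libraries and 8.48% to 10.8% of those of AMPK KO libraries. Prkaa1, the targeted gene, had log2 values of 4.64, 5.24 and 4.86 in WT and of 4.08, 4.72 and 4.67 in AMPK KO, and these ranges overlapped (difference -0.43, limma adjusted p = 0.357). Reads from the 3′ end need not show a deletion elsewhere in the gene. Xist, expressed from the inactive X chromosome, was at 0.93 to 2.16 in WT and 7.55 to 7.92 in AMPK KO. Ddx3y, a Y-linked gene, was at 8.44 to 8.53 in WT and 6.93 to 7.28 in AMPK KO, so the groups also differed in sex-linked transcripts, against the female sex stated for the mice. This difference and the genotype cannot be told apart, because it separates the same samples, and as all 6 libraries held Ddx3y reads, none could be set aside. Cd8b1, which marks CD8 T cells, was at 7.17 to 7.98 over all 6 libraries, above Cd4 at 6.14 to 6.83. In bulk RNA, fewer cells of a type and less RNA per cell cannot be told apart.

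Reads were found for 8 of the 10 cytokines, while Il4 and Csf2 were listed at 0 in all 6 libraries. Of the 8, Ifng, Tnf, Il10, Il17a and Il21 had a mean log2 value of at least 1 and were tested with limma, among 11279 genes in all. Il17a passed this filter only through the AMPK KO samples. Past an adjusted p of 0.05, 1 cytokine was called, Ifng, which was higher in AMPK KO, and 5.65% of all tested genes were called (2.54% higher and 3.1% lower in AMPK KO). An unadjusted p under 0.05 was reached by 21.3% of the genes. For 4 of the 10 (Ifng, Tnf, Il10 and Il17a), all among the 5 tested, all AMPK KO samples lay above all WT samples. Over all tested genes, 25.6% had groups that did not overlap (11.6% with AMPK KO above WT and 14% below). All values below are log2 of the normalized value plus 1 unless reads or shares are named, and samples are given in the order 1, 2, 3.

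**Figure D1:**
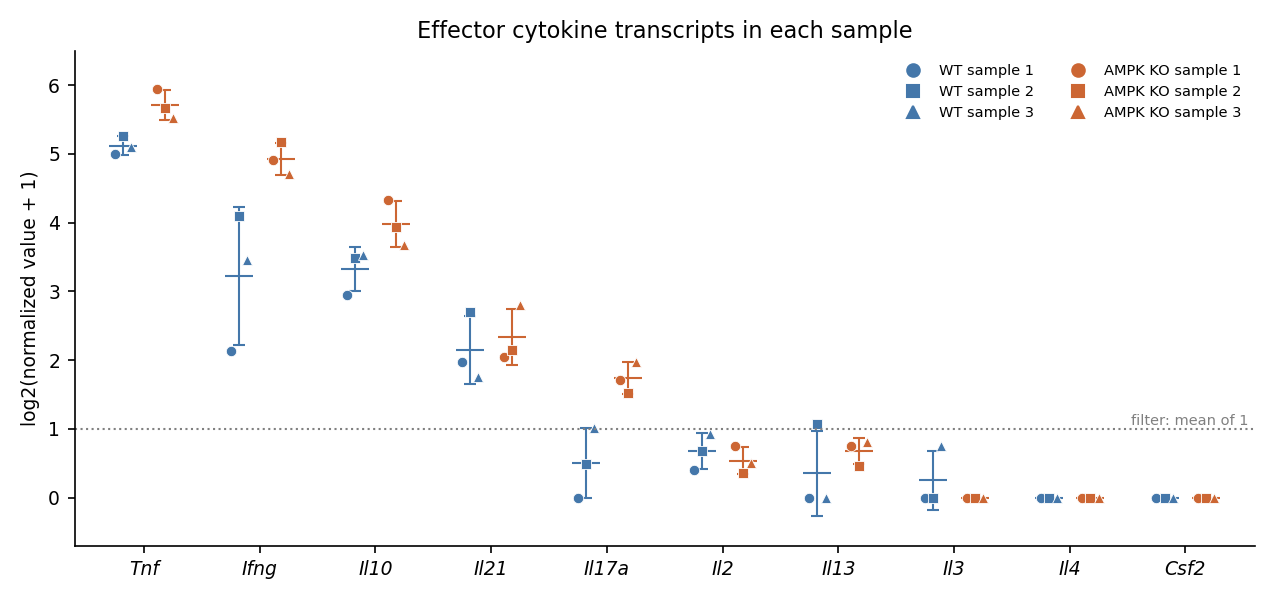
Log2 value of each of the 10 cytokines in every sample (vertical axis), with WT in blue and AMPK KO in orange. Markers show samples 1, 2 and 3, the horizontal dash is the group mean, the bar is 1 SD (n = 3), and the dotted line is the mean needed for testing. Tnf, Ifng, Il10 and Il17a show no overlap between the groups, and Il4 and Csf2 lie at 0.

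The genes fell into a clear order of abundance in AMPK KO. There Tnf was at 5.52 to 5.95, Ifng at 4.71 to 5.17, Il10 at 3.68 to 4.33, Il21 at 2.04 to 2.80 and Il17a at 1.52 to 1.98, with no overlap between neighbours. Il13 and Il2 followed and overlapped each other. In WT, Tnf was again on top without overlap, at 4.997 to 5.27. Below it, Ifng at 2.13 to 4.10 overlapped both Il10 at 2.95 to 3.53 and Il21 at 1.75 to 2.70. Il2 and Il17a overlapped in WT, and both lay below Il21. Since a transcript is read at its 3′ end, these values were not divided by transcript length. Averaged over the 6 samples, Tnf exceeded 85.6% of the listed lines, Ifng 74.2% and Il2 47.9%.

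Ifng (chr10:118441046-118445892, plus strand, GRCm38), which encodes IFN-γ, the activator of macrophages and of antigen presentation, had log2 values of 2.13, 4.10 and 3.45 in WT and of 4.91, 5.17 and 4.71 in AMPK KO. The reads behind them numbered 31, 161 and 88 for WT and 344, 376 and 299 for AMPK KO. All AMPK KO samples were above all WT samples, WT sample 1 stood lowest, and the WT samples were spread more widely than the AMPK KO samples. The WT mean of 3.22 ± 1.01 compares with an AMPK KO mean of 4.93 ± 0.23 (SD, n = 3 each). On the scale of the normalized value itself, which is in CPM after TMM scaling, WT stood at 9.80 ± 6.37 and AMPK KO at 29.7 ± 4.97 (SD, n = 3 each). Ifng rose by a log2 difference of 1.70 (SE 0.40, 95% interval 0.86 to 2.55), which is 3.26-fold (1.81 to 5.85) on the scale of the value plus 1, with a limma adjusted p of 0.0231. It ranked 320 by p among the 11279 genes, and the exact two-sided permutation test gave p = 0.1, the smallest that 3 against 3 samples allow. The call rested on single libraries: the limma adjusted p was 0.0867 when WT sample 1 was left out (difference 1.15), 0.0809 for WT sample 3 (1.82) and 0.0931 for AMPK KO sample 1 (1.71), and stayed below 0.05 when any of the other 3 was left out. It was also lost with no filter on low values (limma adjusted p = 0.0948) and with no trend of the spread (0.128), both of which leave the difference at 1.70.

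Tnf (chr17:35199381-35202007, minus strand), which encodes the inflammatory cytokine TNF, had log2 values of 4.997, 5.27 and 5.09 in WT and of 5.95, 5.67 and 5.52 in AMPK KO. It had the most reads of the 10 cytokines in each library, 285, 375 and 293 in WT and 720, 537 and 535 in AMPK KO. The groups did not overlap, and the lowest AMPK KO sample was above the highest WT sample. The log2 difference was 0.60 (SE 0.19, 95% interval 0.18 to 1.01), or 1.51-fold (1.13 to 2.01), and did not pass the threshold (limma adjusted p = 0.0869). In a fit that also held a division of the libraries taken from these data, described below, the limma adjusted p was 0.0442.

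Il10 (chr1:131019845-131024974, plus strand), the gene of the inhibitory cytokine IL-10, was at 2.95, 3.49 and 3.53 in WT and at 4.33, 3.94 and 3.68 in AMPK KO. The groups were separate, though AMPK KO sample 3 lay close above WT samples 2 and 3. The log2 difference of 0.66 (SE 0.31, 95% interval 0.01 to 1.32) had a limma adjusted p of 0.228. It rests on 62 to 102 reads per WT library and 140 to 227 per AMPK KO library.

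Il17a (chr1:20730905-20734496, plus strand) encodes IL-17A, which draws neutrophils to inflamed tissue. It was at 0, 0.49 and 1.01 in WT (0, 4 and 9 reads) and at 1.71, 1.52 and 1.98 in AMPK KO (27, 20 and 35 reads). No WT sample reached the lowest AMPK KO sample. The log2 difference was 1.24 (SE 0.46, 95% interval 0.26 to 2.21) and did not pass the threshold (limma adjusted p = 0.130). From 13 reads over the WT group and 82 over the AMPK KO group, the ratio was 5.13 (exact 95% interval 2.84 to 10.05, which covers counting error only). At so few reads the size of the difference depended on the scale. It was 0.51 with a pseudocount of 4 and 3.003 by voom on the reads, with no call in either fit.

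Il21 (chr3:37222759-37232636, minus strand) encodes IL-21, which helps B cells. It was at 1.97, 2.70 and 1.75 in WT and at 2.04, 2.15 and 2.80 in AMPK KO, from 21 to 71 reads. The groups overlapped over most of their range. The log2 difference of 0.19 (SE 0.41, 95% interval -0.69 to 1.07, limma adjusted p = 0.834) leaves room for a change of up to 2.09-fold upward.

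Il2 (chr3:37120523-37125959, minus strand), the T cell growth factor, was represented by only 3, 6 and 8 reads in WT and 8, 3 and 5 in AMPK KO. Its log2 values were 0.41, 0.68 and 0.93 in WT and 0.74, 0.36 and 0.51 in AMPK KO, and the groups overlapped. With 17 reads in WT and 16 in AMPK KO, the ratio was 0.766 (exact 95% interval 0.362 to 1.61, counting error only), so a difference was not detectable at this depth. Adad1, a gene that overlaps Il2 on the other strand, had no reads.

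Il13 (chr11:53631324-53634702, minus strand), a type 2 cytokine, had 0, 11 and 0 reads in WT and 8, 4 and 9 in AMPK KO. Reads were thus present in all AMPK KO libraries and in 1 WT library, but that WT library held the highest value of all, so the groups overlapped. The ratio of summed reads was 1.55 (exact 95% interval 0.716 to 3.57, counting error only), and the exact two-sided permutation test on the log2 values gave p = 0.4.

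Il3 and Csf2, neighbouring genes for growth factors of blood cells, were almost or wholly without reads. Il3 (chr11:54265303-54267277, minus strand) had 6 reads in WT sample 3 and none elsewhere, so nothing can be said of the groups from it. Csf2 (chr11:54247271-54249667, minus strand) and Il4 (chr11:53602982-53618669, minus strand), the type 2 cytokine that directs Th2 cells, had none in any library. A count of 0 allows up to 3 reads over a group, which is 0.107 CPM in WT and 0.0870 CPM in AMPK KO.

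Summed over the 10 genes, the cytokines had 408, 714 and 518 reads in WT and 1371, 1131 and 1094 in AMPK KO. The sum of their normalized values was 44.3, 71.4 and 58.6 CPM in WT and 116, 105 and 92.0 in AMPK KO. The highest WT library thus stayed below the lowest AMPK KO library. Tnf made up 69.9%, 52.5% and 56.6% of the cytokine reads in WT and 52.5%, 47.5% and 48.9% in AMPK KO. Ifng made up 7.59%, 22.5% and 17.0% in WT and 25.1%, 33.2% and 27.3% in AMPK KO. The share of Ifng did not overlap between the groups, and the sum is dominated by these 2 genes.

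**Figure D2:**
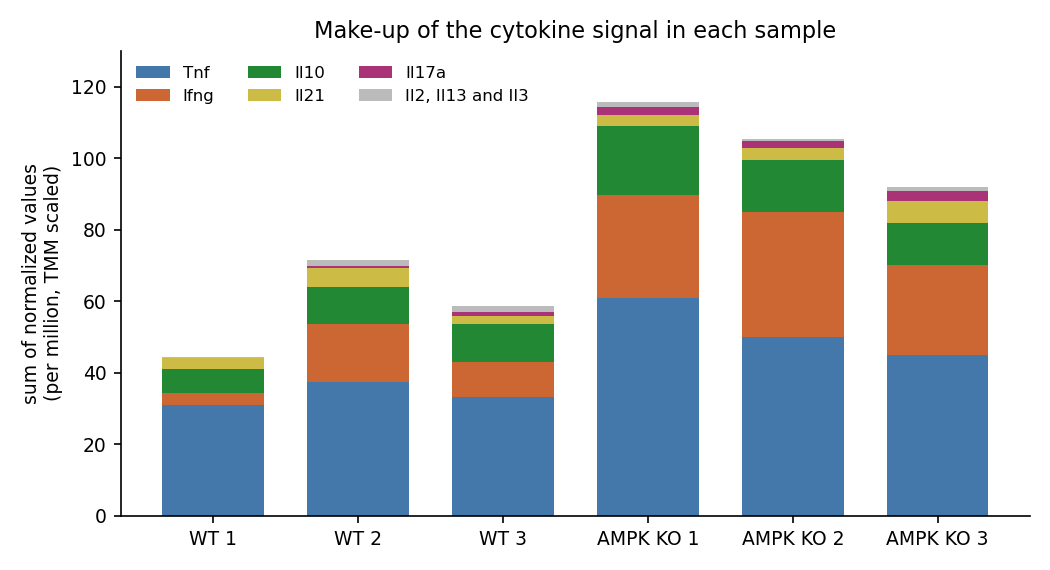
Sum of the normalized values of the cytokines in each library (bars, CPM), stacked by gene. The bars of WT reach 44.3 to 71.4 and those of AMPK KO reach 92.0 to 116, and Tnf and Ifng take up most of each bar.

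The libraries were also divided by the first component of their deviations from the group means, from which the genotype has been removed by construction. It held 59.8% of that deviation and set WT sample 2 and AMPK KO samples 1 and 3 apart from the other 3. Within the side of WT sample 2, the AMPK KO minus WT difference in log2 was 0.71 for Ifng, 0.47 for Tnf, 0.52 for Il10, 1.36 for Il17a and -0.28 for Il21. Within the other side it was 2.38 for Ifng, 0.63 for Tnf, 0.70 for Il10, 1.01 for Il17a and 0.29 for Il21. The signs of Ifng, Tnf, Il10 and Il17a are fixed by their separate groups. Each side compares 1 sample with 2, so the sizes follow single samples, such as WT sample 2 with the highest Ifng of its group, and no test was made within a side. With the division as a term of the model, 2 cytokines were called, Ifng (limma adjusted p = 0.00199) and Tnf. That term was taken from these same values after seeing the data, so the fit is no independent support for either call.

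**Figure D3:**
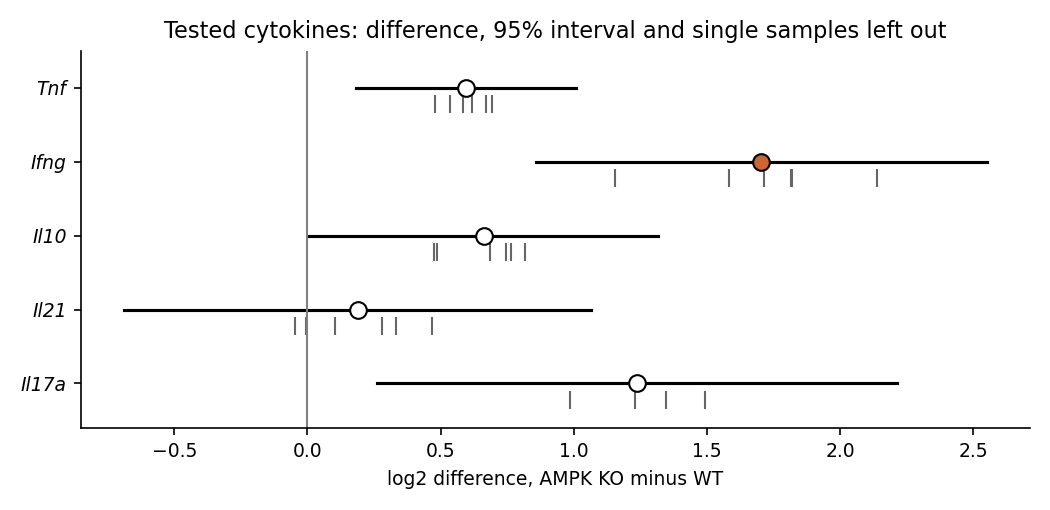
Log2 difference, AMPK KO minus WT, of the 5 tested cytokines (circles, filled where the limma adjusted p is below 0.05) with 95% intervals (lines). Ticks under each line give the difference with a single sample left out, where the gene could be tested. The ticks of Ifng run from 1.15 to 2.14, and those of Il21 lie on both sides of 0.

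The promoters are shown for 3 genes whose groups were separate and for Il2, whose groups overlapped, since these genes share inducing factors. Sequences came from RefSeq (GRCm38.p6), from 250 bases before to 50 after the transcription start, and 9 of the 10 cytokines had an entry (Il10 did not). Capitals mark GGAAA or TTTCC, the core bound by NFAT on either strand, and TGANTCA with any base at N. This pattern is wider than the AP-1 site, which has C or G at N. The letters GGAAA also occur in many NF-κB sites. The windows are chr10:118440796-118441095 (plus strand) for Ifng, chr17:35201958-35202257 (minus strand) for Tnf, chr1:20730655-20730954 (plus strand) for Il17a and chr3:37125905-37126204 (minus strand) for Il2.
Ifng: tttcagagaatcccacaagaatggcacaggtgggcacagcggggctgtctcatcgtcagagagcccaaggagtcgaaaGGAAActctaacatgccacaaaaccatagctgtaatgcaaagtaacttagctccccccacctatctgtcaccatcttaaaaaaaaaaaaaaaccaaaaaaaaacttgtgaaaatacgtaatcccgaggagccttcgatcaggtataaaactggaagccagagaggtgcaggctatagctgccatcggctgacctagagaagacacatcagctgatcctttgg
Tnf: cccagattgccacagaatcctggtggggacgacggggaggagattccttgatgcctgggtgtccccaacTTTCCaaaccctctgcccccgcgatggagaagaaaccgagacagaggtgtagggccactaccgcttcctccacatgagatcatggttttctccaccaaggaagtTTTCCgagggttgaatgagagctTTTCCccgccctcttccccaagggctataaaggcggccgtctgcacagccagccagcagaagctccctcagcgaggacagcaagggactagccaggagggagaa
Il17a: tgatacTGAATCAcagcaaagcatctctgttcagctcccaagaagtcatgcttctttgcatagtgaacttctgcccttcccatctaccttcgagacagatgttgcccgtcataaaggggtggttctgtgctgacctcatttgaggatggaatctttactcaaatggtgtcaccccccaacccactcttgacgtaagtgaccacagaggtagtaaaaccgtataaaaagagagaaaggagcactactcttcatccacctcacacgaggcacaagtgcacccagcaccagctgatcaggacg
Il2: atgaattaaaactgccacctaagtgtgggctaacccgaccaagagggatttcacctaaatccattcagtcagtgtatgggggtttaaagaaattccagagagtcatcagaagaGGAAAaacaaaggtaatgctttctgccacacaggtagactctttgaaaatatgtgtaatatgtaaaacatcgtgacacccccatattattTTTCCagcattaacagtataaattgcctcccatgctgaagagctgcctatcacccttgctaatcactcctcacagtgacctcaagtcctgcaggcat

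The Tnf window held 3 NFAT cores, the Il2 window 2, the Ifng window 1 and the Il17a window none. The Il17a window alone among these 4 held a TGANTCA match, with A at N, so it is not the AP-1 site itself. Over all the cytokine windows, of which Il4 has 2, 9 of 10 held an NFAT core and 1 of 10 a TGANTCA match. Among all 32851 promoter windows of this length, 61.3% held an NFAT core and 7.81% a TGANTCA match. The second Il4 window held 5 NFAT cores, a number reached by 0.728% of all windows, although no Il4 read was found. The match counts therefore did not follow the order of the transcript levels in these libraries.

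The end of the mRNA is shown for its AU-rich element, ATTTA in DNA letters, to which decay factors bind. In the longest protein-coding transcript of each gene (GENCODE M21, GRCm38), the bases after the stop codon were searched. Shown are the 27 bases with the most copies, which are in capitals, for the tested genes Tnf, Ifng and Il17a, for Il2, and for Csf2, which has the highest density.
Tnf: ATTTAttATTTATTTAttATTTATTTA
Ifng: ctATTTAttaatATTTAaaactATTTA
Il17a: ttATTTAaaaggtaaagcctatATTTA
Il2: aaggctctctATTTATTTAaatATTTA
Csf2: ttaaatATTTATTTATTTATTTATTTA

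All 10 cytokines held at least 1 copy, and Csf2 and Il21 held the most, with 9 each. Per kilobase after the stop codon there were 28.4 copies in Csf2, 12.0 in Il2, 11.0 in Il17a, 10.5 in Tnf and 9.51 in Ifng, whereas Il13 had 4.05 and Il21 had 3.49. The median over 9945 tested genes with at least 100 such bases was 1.37. The density in Tnf was above that of 99.5% of these genes, and that in Il21, the lowest of the 10, above that of 85.6%. Dense AU-rich elements were thus common to genes with many reads (Tnf), with few (Il2) and with none (Csf2). The regulators of such mRNAs (Zfp36 and its relatives, Elavl1, the Regnase and Roquin genes and the deadenylase subunits) were measured for 18 of 18 genes, and 0 were called by limma, while 3 had an unadjusted p under 0.05 and the median difference was -0.11. Their most abundant member, Zfp36l1, was at 9.42 ± 0.14 (SD, n = 3) in WT and 8.87 ± 0.50 in AMPK KO (limma adjusted p = 0.126). With a single library left out, 0 or 1 of the 18 were called.

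Several cytokine genes sit in clusters, and their neighbours were examined to see what lies beside the change. Of 29 neighbours that are not cytokines of the list (the nearest 2 listed genes on each side), 12 were tested and 1 was called, 4932438A13Rik beside Il2 (difference -0.84, limma adjusted p = 0.00336). Lta, 1158 bases from Tnf, had a difference of -0.51 (limma adjusted p = 0.442), and Ltb, on its other side at 3061 bases, one of -0.54 (limma adjusted p = 0.302). Both encode lymphotoxins, relatives of TNF, and neither shared the positive sign of Tnf. Iltifb, a close copy of Il22 and the nearest listed gene before Ifng, was at 0.17 ± 0.30 in WT and 0 in all AMPK KO libraries, from 4 reads in all. Il22, the next gene on that side, was at 0.40 ± 0.69 in WT and 0.11 ± 0.19 in AMPK KO (SD, n = 3). Il17f, next to Il17a, was at 0.24 ± 0.42 and 0.29 ± 0.51, too low to be tested. Rad50 and Kif3a, which flank Il4 and Il13 and are expressed in most cells, had reads in every library and differences of -0.19 and -0.22 without a call.

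The other genes of the pathway are given by list, and their shares of called genes are to be read against the 5.65% over all tested genes. The shares were 30% for other cytokines, 11.8% for receptors, 16% for induction factors, 5.88% for lineage factors, 26.7% for repressors, 14.3% for IFN-γ targets, 20% for TNF and NF-κB targets, 13.3% for IL-2 and STAT5 targets, 8.33% for IL-4, IL-10 and IL-21 targets and 16.7% for early activation genes. Other secreted and surface cytokines were listed for 33 genes, and 20 were tested. Of these, 4 rose in AMPK KO and 2 fell, and the median difference of the list was 0.28, against 0.02 over all tested genes. Those that rose were Areg (amphiregulin, a growth factor of tissue repair, 1.84, limma adjusted p = 0.00813), Tnfsf14 (LIGHT, 1.60, 0.0168), Il18 (1.33, 0.0112) and Il1b (0.96, 0.00160). Il1b and Il18 are cytokines that myeloid cells typically make. Those that fell were Cd40lg (CD40 ligand, through which helper T cells license B cells, -1.76, limma adjusted p = 0.00296) and Il16 (-0.82, 0.0143). Cd40lg went from 6.37, 6.01 and 5.64 in WT to 4.95, 3.999 and 3.78 in AMPK KO, with no overlap. With WT sample 1 or WT sample 3 left out, 3 of the list were called, and with AMPK KO sample 1 left out, 2.

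Receptors for the 10 cytokines were tested for 17 of 19 genes, of which 2 rose and 0 fell, with a median difference of 0.20. Csf2ra, the receptor of the undetected Csf2 and a gene mostly of myeloid cells, rose by 1.38 (limma adjusted p = 0.00188), and Il2rb, the signalling chain of the IL-2 receptor, by 0.67 (limma adjusted p = 0.0126). Ifngr1, the most highly expressed of the IFN-γ receptor chains, was at 9.52 ± 0.10 in WT and 9.61 ± 0.29 in AMPK KO (SD, n = 3, limma adjusted p = 0.810). The number called ranged, with a single library left out, from 1 (WT sample 1, WT sample 3 or AMPK KO sample 1 left out) to 4 (AMPK KO sample 3 left out).

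Of the 25 transcription factors of cytokine induction, all tested, 1 rose and 3 fell, and the median difference was 0.08. Fosb, an AP-1 subunit, rose by 0.70 (limma adjusted p = 0.0159). Egr3 and Egr1, induced by T cell receptor signals, fell by 1.34 and by 0.76 (limma adjusted p = 0.000719 and 0.00592), and Rel, the NF-κB subunit c-Rel, fell by 0.86 (0.00951). With WT sample 1 or WT sample 3 left out 2 of the 25 were called, and with AMPK KO sample 2 left out 11 were. Among the helper lineage factors, 17 were tested and 1 rose, a share near that of all tested genes (median difference 0.03). This was Stat4, the transducer of IL-12 signals in Th1 cells, at 5.51, 5.62 and 5.86 in WT and 6.79, 6.33 and 6.85 in AMPK KO (difference 0.99, limma adjusted p = 0.00707). Tbx21, the Th1 factor T-bet, had a difference of 0.35 without a call (limma adjusted p = 0.549), and was named here after its values were seen. The 15 repressors of cytokine genes held 1 that rose (Crem, 0.75) and 3 that fell (Cblb, -0.92, Bach2, -0.80, and Ikzf1, -0.58), with a median difference of -0.17 and limma adjusted p from 0.0205 to 0.0460. None of these 4 was called when WT sample 1, WT sample 3 or AMPK KO sample 1 was left out, and neither was Stat4 when WT sample 1 or AMPK KO sample 1 was.

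Genes that respond to the cytokines were counted as well. Of 21 IFN-γ targets, 3 rose and 0 fell, with a median difference of 0.07. Irf1, a transcription factor of the IFN-γ response, rose from 9.07, 9.16 and 9.06 to 9.77, 10.04 and 9.91 (difference 0.81, limma adjusted p = 0.00336) and was called with any single library left out. Cxcl10, a chemokine, rose by 1.98 (limma adjusted p = 0.00744), and Socs1, a feedback inhibitor, by 2.13 (0.0196) although its groups overlapped. The antigen processing gene Tap1 and the GTPase gene Igtp, the most abundant members after Irf1, had differences of -0.28 and -0.24 without a call. With WT sample 1 or WT sample 3 left out, 1 was called, and with AMPK KO sample 2 left out, 6.

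Of 15 TNF and NF-κB targets, 3 rose and 0 fell, with a median difference of 0.37. They were Tnfaip2 (1.00, limma adjusted p = 0.0109), Icam1, an adhesion molecule (0.95, 0.0198), and Cd83 (0.68, 0.0316). Nfkbia, the inhibitor that NF-κB induces and the most abundant of the list, was at 10.94 ± 0.10 in WT and 11.34 ± 0.07 in AMPK KO (SD, n = 3, limma adjusted p = 0.127). Leaving out WT sample 1, WT sample 3 or AMPK KO sample 1 took away all 3 calls, and leaving out AMPK KO sample 2 gave 7. Of 15 IL-2 and STAT5 targets, 1 rose (Socs1) and 1 fell (Bcl2, a survival gene, -0.67, limma adjusted p = 0.0206), and the median difference was -0.02. Of 12 tested targets of IL-4, IL-10 and IL-21, 1 rose, again Socs1, which stands in 3 of the target lists (median difference 0.11). Socs1 was not called when WT sample 1, WT sample 3 or AMPK KO sample 1 was left out, and Bcl2 was not when WT sample 1 or WT sample 3 was. Of 18 early activation genes, Cd44 (1.17, limma adjusted p = 0.00364) and Tnfrsf9, which encodes 4-1BB (0.72, 0.0245), rose and Cd40lg fell (median difference -0.04). Of these 18, 0 were called with WT sample 1 left out and 10 with AMPK KO sample 2 left out.

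**Figure D4:**
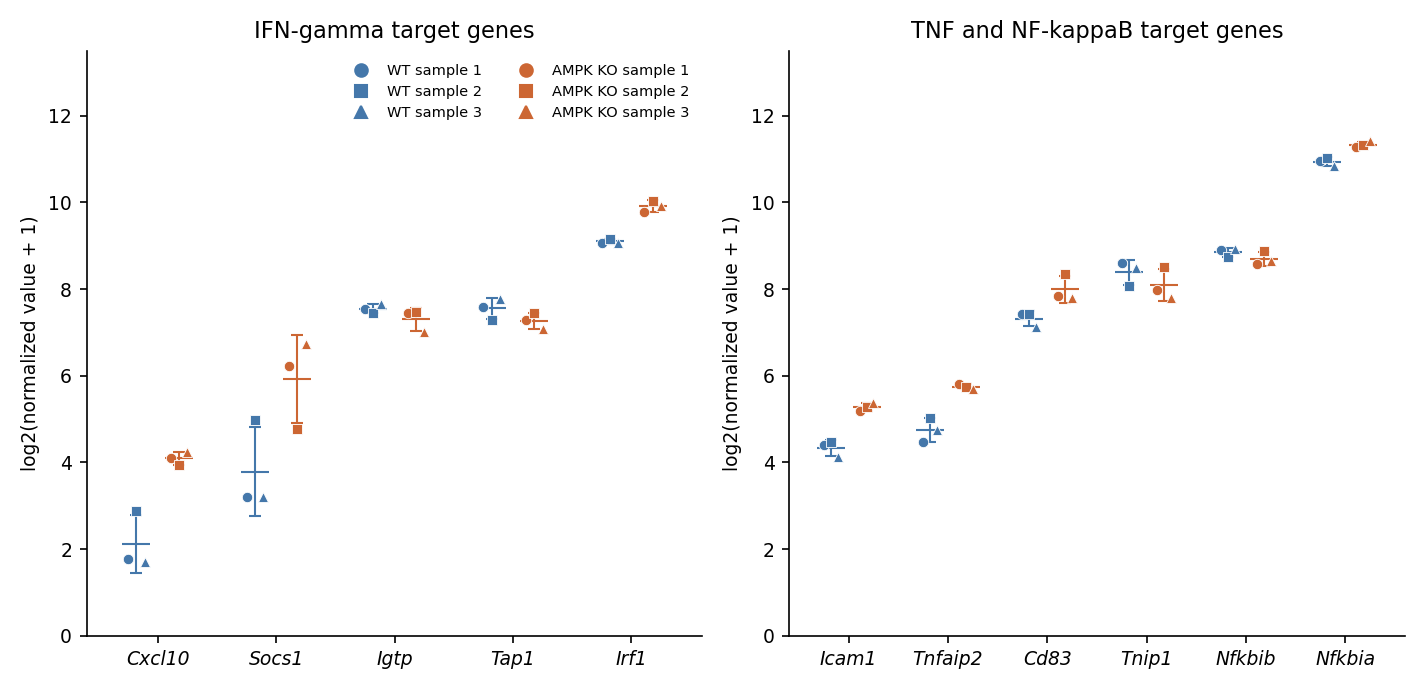
Log2 values of the named targets of IFN-γ (left) and of TNF and NF-κB (right) in every sample, with WT in blue and AMPK KO in orange. Dashes are means and bars are 1 SD (n = 3). Irf1, Cxcl10, Tnfaip2, Icam1, Cd83 and Nfkbia lie higher in all AMPK KO samples, whereas Socs1, Igtp, Tap1, Tnip1 and Nfkbib overlap.

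Cells other than CD4 T cells can make the same cytokines. The CD4 T cells had been isolated with magnetic beads or a sorter, steps meant to remove other cells. Transcripts of other cell types were still present, and some of these markers differed between the groups. Of 9 tested markers of macrophages and monocytes (10 listed, none at 0), 7 rose and 0 fell. With WT sample 1 left out 4 were called, and with AMPK KO sample 3 left out 8. Over all 17 alternatives the number ranged from 0 to 8. The summed level of the list was 387 to 426 CPM in WT and 717 to 1354 in AMPK KO. Cd14 rose by 1.87 (limma adjusted p = 0.00310) and C1qa by 1.85 (0.00308). AMPK KO sample 2 held the highest sum of these markers and the highest Ifng and Il18, and AMPK KO sample 1 the highest Tnf, Il10 and Il1b. The markers did not all peak together, as Cd14 was highest in AMPK KO sample 3. For Tnf, Il10, Il1b and Il18, which such cells also make, the part of these cells in the result was not tested.

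Transcripts of other makers of IFN-γ were present too. The NK cell markers (4 of 5 tested, 0 called by limma, 2 with an unadjusted p under 0.05) summed to 38.2 to 56.6 in WT and 63.2 to 89.0 in AMPK KO. The CD8 markers Cd8a and Cd8b1 (0 of 2 called by limma, both with an unadjusted p under 0.05) summed to 231 to 305 in WT and 321 to 376 in AMPK KO. Eomes, which stands among the helper lineage factors too, made up 77.9% to 91.8% of the NK sum in WT and 79.7% to 84.9% in AMPK KO. Without Eomes the NK sums overlapped, at 3.15 to 12.5 in WT and 10.1 to 18.1 in AMPK KO. The differences of the tested NK markers were 0.65 for Eomes, 0.45 for Klrb1c, 0.78 for Klra8 and 1.03 for Klre1 (limma adjusted p 0.0569 to 0.540), and that of Ncr1, too low to be tested, was -0.66. Klre1 passed the filter only through the AMPK KO samples, so the counts over the tested NK markers are partly set by the filter. Klre1 and Ncr1 were named after their values were seen. The part of CD8 T and NK cells in the difference of Ifng was not tested. Of 10 tested T cell markers 3 fell, Cd3g (-0.93), Cd3e (-0.66) and Cd28 (-0.56), and the sum was 2958 to 3174 in WT and 2206 to 2749 in AMPK KO. With WT sample 1 left out 0 of the T cell markers were called, with WT sample 3, AMPK KO sample 1 or AMPK KO sample 3 left out 1 was, and with AMPK KO sample 2 left out 5 were. For γδ T cells, which make IL-17A, 2 of 7 markers were listed and 1 was tested, without a call. Of 6 markers of type 2 innate lymphoid cells, which make IL-13, 1 rose (Areg, a call lost with AMPK KO sample 1 left out), while differences without a call were 0.96 for Klrg1, -0.38 for Rora, -0.26 for Gata3 and, named after their values were seen, 1.31 for Il1rl1 and -0.44 for Il17rb. The sum of these 6 was 263 to 307 in WT and 230 to 261 in AMPK KO. Rora and Gata3, which T cells express as well, made up 83.3% to 96.5% of it, and without them the sum was 9.30 to 24.3 in WT and 34.7 to 41.3 in AMPK KO. Of 3 tested markers of basophils and mast cells, 1 rose (Hdc, 1.14, a call lost with WT sample 1 or WT sample 3 left out), while Cd200r3 and Kit had differences of -1.28 and -0.54 without a call. Hdc made up 74.4% to 94.0% of the sum of this list, and without it the sum was 6.40 to 9.05 in WT and 3.29 to 5.96 in AMPK KO. Of 4 tested plasma cell markers, Jchain rose by 2.60 (limma adjusted p = 5.77e-08). Mzb1, Sdc1 and, named after its values were seen, Derl3 had differences of 0.75, 0.83 and 1.46 without a call. Derl3 passed the filter only through the AMPK KO samples. Of 6 tested neutrophil markers Ltf and Ngp fell (by 1.54 and by 1.53). The most abundant, S100a8 and S100a9, had no call. Their mean log2 values were 8.52 and 8.47 in WT and 7.97 and 8.14 in AMPK KO. Cd4 was lower, at 6.69 in WT and 6.33 in AMPK KO. The call of Ltf was lost with AMPK KO sample 1 or any WT sample left out, with limma adjusted p up to 0.129, and Ngp was called with any sample left out. No B cell marker of 6 and no dendritic cell marker of 5 was called by limma, with 1 and 0 at an unadjusted p under 0.05. The dendritic cell markers summed to 35.1 to 39.5 in WT and 43.9 to 66.1 in AMPK KO, and the B cell markers to 235 to 250 and 215 to 264.

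**Figure D5:**
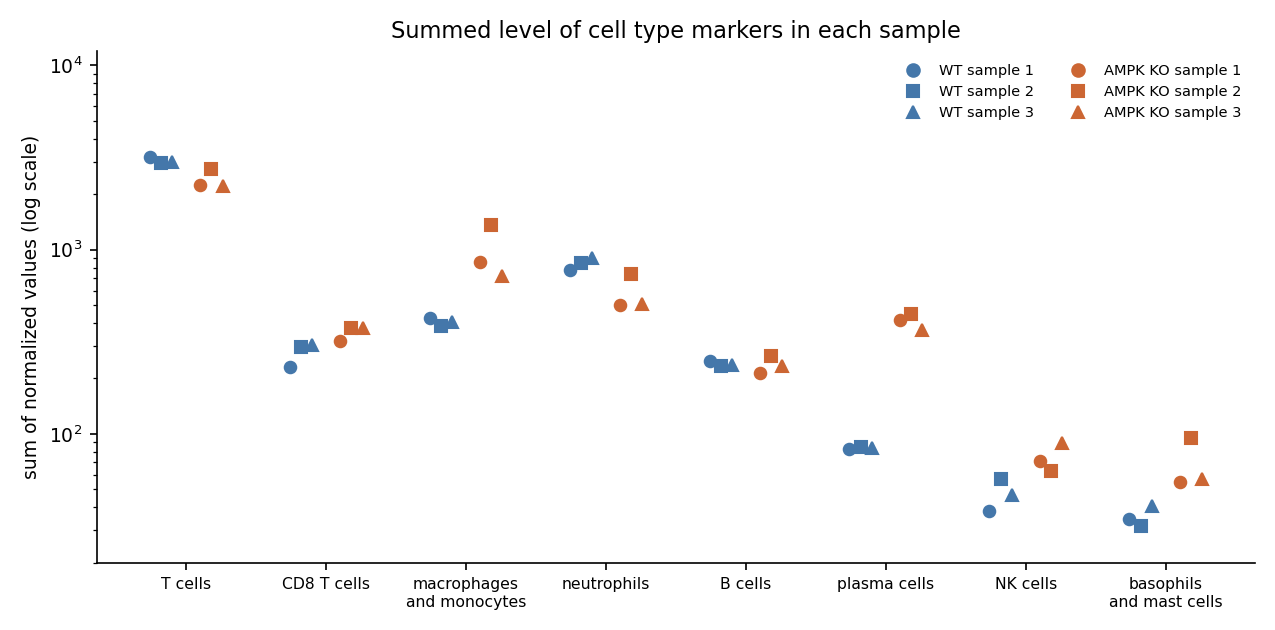
Summed normalized value (CPM, log scale) of the markers of 8 cell types in each sample, with WT in blue and AMPK KO in orange. The sums of macrophage and monocyte, plasma cell, CD8, NK and basophil and mast cell markers are higher in every AMPK KO sample. The plasma cell sum is mostly Jchain, the NK sum mostly Eomes and the basophil and mast cell sum mostly Hdc. The sums of T cell and neutrophil markers are lower in AMPK KO, and B cell sums overlap.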

How the data were processed

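RNA of CD4 T cells (3 WT samples, 3 AMPK KO samples) was converted to 3′ libraries from 500 ng of RNA (Lexogen QuantSeq) and processed by a company. The authors deposited log2 values of TMM and CPM normalized reads plus 1, for genes listed by symbol. The submitters' processing notes name Bowtie2, bedtools and mm10, without versions, and an annotation is not given in the sources used here. Each library has 23282 lines, and 35 symbols stand on 79 of them. Up to 100 reads, all values lay within 0.1 of whole reads, from which depths were recovered.

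Genes whose log2 values averaged at least 1 entered the test with limma 3.58.1 in R 4.3.3 (lmFit, eBayes with a trend, genotype only, two-sided, Benjamini-Hochberg over 11279 genes, threshold 0.05). The procedure was run on simulated independent libraries. These lacked the shared deviation found between the real libraries, so the run does not show how the test behaves under it. Single values were compared by exact two-sided permutation tests, and summed reads by exact intervals. The study calls the samples biologically independent, but the labels name no animals, so p-values measure the spread between these samples. The 10 cytokines and 22 gene lists (11 pathway and 11 marker lists) were chosen with earlier results of these data known. Genes open to naming were the cytokines and, from each list, up to 6 called genes with the largest differences and the 3 most abundant. The text names only part of these, and list genes from outside this set are marked. Alternatives were quantile normalization, scaling outside Rn45s, other filters and pseudocounts, a replicate block, leaving out each sample, robust or trendless spread, other thresholds, voom, and the division of the libraries, the last added after seeing the data. Python 3.11.15 with pandas 2.3.3 and scipy 1.17.1 was used for the other steps.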

Additional observations from a re-analysis of the deposited data

How the results depend on the processing

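Of the 637 genes past the threshold, the count was 308 with no filter on low values, 73 with no trend of the spread, 1428 when the model held the library division (added after seeing the data), 1142 at an adjusted p under 0.1 and 2405 at an unadjusted p under 0.05. It ranged from 127 (without WT sample 1) to 1243 (without AMPK KO sample 2) with a sample left out. The number of cytokines called was 0 with no filter and with no trend, 2 with the division and at an adjusted p under 0.1, and 4 at an unadjusted p under 0.05, and ranged from 0 to 1 with a sample left out. Replicate numbers did not pair the samples: deviations of same-numbered samples correlated at -0.22, -0.53 and -0.31. With a replicate block, 102 genes and 0 cytokines were called (limma adjusted p of Ifng 0.0696), and no WT sample correlated best with its own number.

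Over 17 alternatives, several of which leave the difference itself as it is, Ifng ranged from 1.15 to 2.14 (limma adjusted p 0.00199 to 0.128), Tnf from 0.48 to 0.69 (0.0442 to 0.353) and Il10 from 0.48 to 0.82 (0.203 to 0.575), with signs fixed by their separate groups when samples are left out. Il17a ranged from 0.51 to 3.003 over the 14 that tested it, which exclude a mean of at least 3 and leaving out AMPK KO sample 1 or 3. Il21 ranged with a sample left out from -0.0455 (AMPK KO sample 3) to 0.468 (WT sample 2), and was at -0.0055 for WT sample 3. Scaled to reads outside Rn45s, 723 genes were called, 32.5% of them higher in AMPK KO, against 45.1%. Of 40 called cytokines and list genes, 10 kept the call with any sample left out. The call was lost by 27 when WT sample 1 was left out, by 23 for WT sample 3 and by 21 for AMPK KO sample 1. The 40 hold up to 6 called genes per list, which leaves out Ly6c2, a called macrophage and monocyte marker. Il2, Il3, Il4, Il13 and Csf2 are limited by depth.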
